A study of Mus musculus with 18 samples.

Results

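The passage of mouse thymocytes from the DN3 to the DP stage during normal turnover was described from 8 of the 18 RNA-sequencing libraries of the series: the 4 libraries labelled DP turnover were compared with the 4 labelled DN3 turnover. Thymi of wild-type genotype had been transplanted and were taken after 28 days, per the labels' protocols, and every library, in either condition, shares that graft. A FACS sort gave DN3 cells and CD4 CD8 double-positive cells, and poly(A) RNA was captured on oligo-dT beads. Turnover here is the ordinary state of the organ, in which thymocytes are replaced by progenitors that arrive from outside; in the other condition, autonomy, the graft maintains itself without them, and its 10 libraries (5 DN3, 5 DP) are used below as libraries outside the comparison. The sources used here give no strain, sex or age of the donors, no hosts of the grafts and no number of animals per library. Since no label ties the libraries of a group to different mice, each p-value speaks for the spread among these libraries, which may be technical.

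Thymocytes that lack both coreceptors rearrange the T-cell receptor beta, gamma and delta genes at the DN3 stage, where Notch signals from the thymic stroma and interleukin 7 sustain them. A productive beta chain pairs with the invariant pre-TCR alpha chain, and the resulting pre-TCR signal, called beta-selection, drives a burst of division and the step to the DP stage. DP cells carry CD4 and CD8, leave the cycle as small cells, reopen the recombinase to rearrange the alpha locus, and then wait for selection on self peptide and MHC.

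Levels are given in CPM, the usual unit of reads per gene relative to the TMM-scaled library size, in the order of the library numbers RP1140A, RP1140B, RP1141A and RP1141B. A log2 difference is DP over DN3 from the edgeR quasi-likelihood fit on the counts, with its standard error (SE), and it passed the test at a Benjamini-Hochberg adjusted p under 0.05 over all genes tested. CPM do not correct for gene length, so they compare libraries for 1 gene and not genes with each other. In bulk samples fewer cells of a kind and less RNA per cell cannot be told apart. The DN3 libraries held 12260295 to 14846126 counts each, and the DP libraries held 6329039 to 24191044. The mitochondrial genes took 4.53% ± 0.811 of the DN3 counts and 2.88% ± 0.178 of the DP counts (SD, n = 4 each; exact permutation test over 70 groupings, two-sided, p = 0.0286, the smallest it can give). Thinned to an equal depth, the DN3 libraries showed a read in 12194 ± 38.8 genes and the DP libraries in 11517 ± 273 (SD, n = 4; exact permutation p = 0.0286).

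The libraries separated by stage on the first principal component (60.4% of the variance), and a library of each stage stood apart from its group. On the second component (9.84%) DP library RP1140A, with 6329039 counts the shallowest, lay at -60.3 where the other DP libraries lay at 15.2 to 22.8 and the DN3 libraries at -16.2 to 21.95. Without it 1722 genes were higher and 1906 lower. The DN3 library RP1141B held transcripts of the DP stage: among 86 genes at least 16-fold higher in DP when it was left out, its median level was 20.6% of the DP mean, with quartiles of 14.9% and 27.2%. In the other DN3 libraries the median was 1.86%, 0.804% and 1.55%. The genes were chosen with those libraries, so low medians there follow from the choice. For 151 genes at least 16-fold lower in DP, the median level of RP1141B was 85.3% of the other DN3 libraries. By the same measure RP1140A, RP1140B and RP1141A stood at 101.5%, 95.98% and 90.1%. The DN3 markers Il2ra, Ptcra, Notch1 and Dtx1 were present in every DN3 library, and Cd44, which marks earlier cells, averaged 0.7995 ± 0.763 CPM there (SD, n = 4). Results are given with RP1141B and, where marked, without it.

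**Figure D1:**
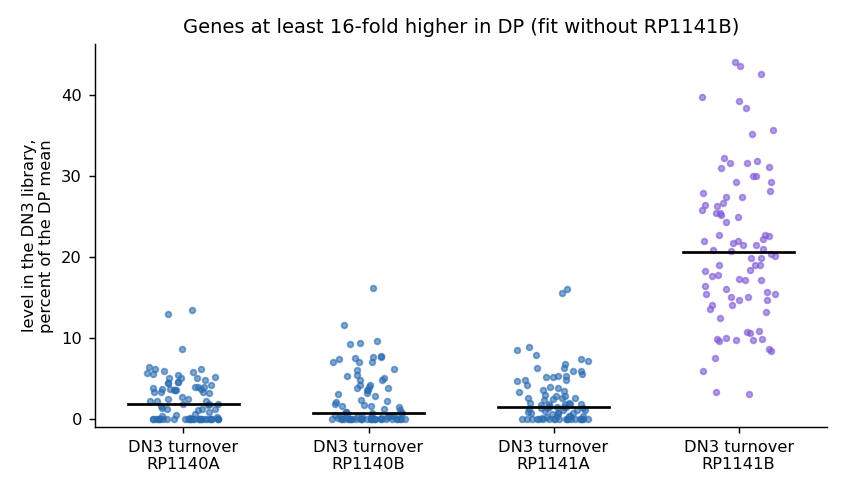
Level of 86 genes in each DN3 turnover library as a percent of the gene's mean in the 4 DP libraries (vertical axis); each point is 1 gene and each black line the median. The genes were chosen as at least 16-fold higher in DP in the fit without RP1141B. Low levels in the other DN3 libraries, at medians of 0.804% to 1.86%, follow from that choice. RP1141B, which took no part in the choice, sits at a median of 20.6%.

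Of 10868 genes tested, 1720 were higher in DP (15.8%) and 1925 lower (17.7%). At a difference of at least 2-fold, 1179 were higher (10.8%) and 1357 lower (12.5%). The DN3 and DP libraries did not overlap for 3920 of the genes tested (36.1%), or for 4566 (40.9%) with RP1141B left out. A lack of overlap, given below for single genes, is therefore common in these data. Without RP1141B, 1652 of 11168 genes were higher (14.8%) and 1642 lower (14.7%), and no gene called in both fits changed direction: 1501 of the 1720 higher genes and 1554 of the 1925 lower genes were called again. The autonomy libraries share no library with this comparison. Among them DP was higher than DN3 for 2718 of 10274 genes (26.5%) and lower for 2666 (25.9%). Of the genes higher in turnover, 1351 of the 1688 tested there were also higher in autonomy and 34 were lower; of the genes lower in turnover, 1489 of 1815 were also lower and 10 were higher. The median log2 difference over all genes was -0.04 with TMM scaling; with total counts as the only scaling it moved up by 0.12, and the share of calls that were higher went from 47.2% to 54.6%. A test of whether the stage difference itself differed between the conditions, over all 18 libraries, passed for 633 of 11521 genes (5.49%), or for 424 of 11834 (3.58%) without RP1141B.

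The coreceptor genes rose. Cd4 (chromosome 6, 124864692 to 124888221 in GRCm38), which encodes the coreceptor for MHC class II, measured 1.23, 2.04 and 0.439 CPM in the first 3 DN3 libraries, 140.3 in RP1141B, and 674, 859, 864 and 878 in DP. Cd8a, the CD8 alpha chain, measured 7.16, 7.64 and 2.63, then 400.3 in RP1141B, and 2263, 2422, 2278 and 2271 in DP. Cd8b1, the CD8 beta chain, measured 25.7, 7.27 and 15.3, then 639, and 2172, 1942, 1938 and 2031 in DP. For each of these genes every DP library lay above every DN3 library, and RP1141B lay far above the other DN3 libraries. The size of the difference therefore rests on that library: the log2 difference was 4.51 (SE 1.42, adjusted p = 0.0318) for Cd4, 4.47 (adjusted p = 0.028) for Cd8a and 3.56 (adjusted p = 0.0411) for Cd8b1 with it, and 9.39 (SE 0.41, adjusted p = 1.47e-06), 8.67 (adjusted p = 1.47e-06) and 7.01 (adjusted p = 7.32e-06) without it. As means without RP1141B, Cd8a was 5.81 ± 2.76 CPM in DN3 (SD, n = 3) and 2308 ± 76.2 in DP (SD, n = 4), 397-fold higher. With RP1141B kept, the calls also rested on single other libraries: the adjusted p of Cd8b1 was 0.0539 to 0.0888 with any 1 of them left out, that of Cd4 was 0.0507 to 0.0599 without DN3 library RP1140A, RP1140B or RP1141A or DP library RP1141A or RP1141B, and that of Cd8a was 0.0561 without DN3 library RP1140A.

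Of the 22 tested genes of a list of coreceptors and double-positive stage genes, 16 were higher in DP, 2 lower and 4 did not pass, with a median log2 difference of 2.01; the counts were the same without RP1141B. The lower genes were Ly6d, at 1056, 648, 1149.8 and 1523 CPM in DN3 and 710, 524, 593 and 593 in DP (log2 difference -0.85, adjusted p = 0.0151), and Rgcc, a regulator of the cell cycle (log2 difference -0.69, adjusted p = 0.0058). Ly6d overlapped between the groups and Rgcc did not. The direction of Rgcc was not shared by the autonomy libraries, where its log2 difference was 0.29 (adjusted p = 0.0966; test of the difference, adjusted p = 0.00997).

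**Figure D2:**
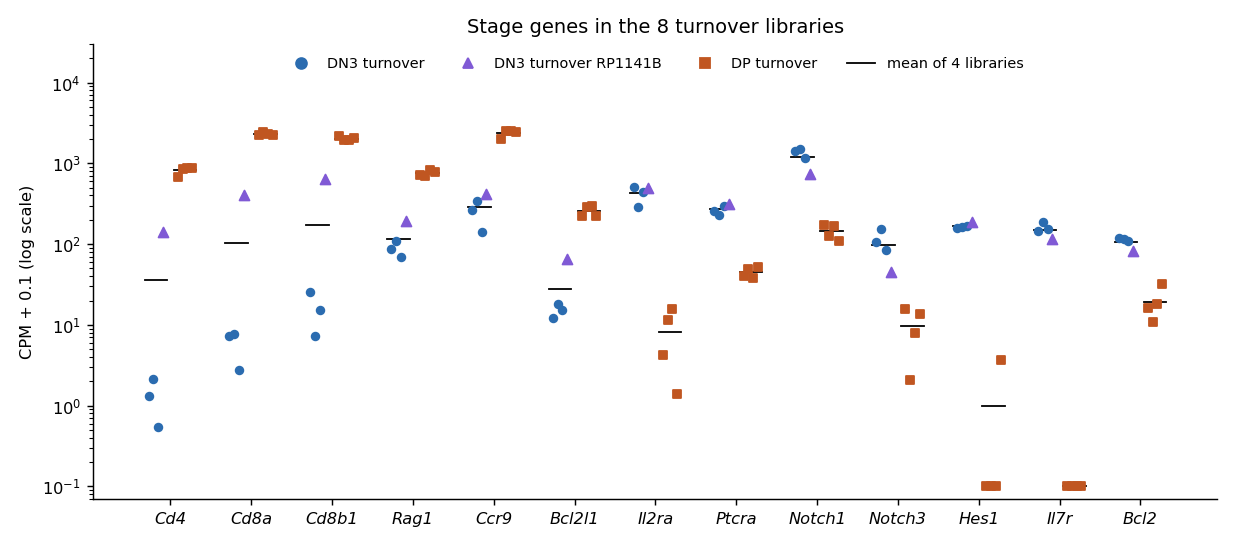
Level of 13 stage genes in each of the 8 turnover libraries (CPM + 0.1, log axis), with DN3 libraries as circles, DN3 library RP1141B as a triangle, DP libraries as squares and the mean of 4 libraries as a line. Cd4, Cd8a and Cd8b1 in RP1141B lie between the other DN3 libraries and the DP libraries, and Il7r had no read in the 4 DP libraries.

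Genes of the recombinase rose, while most genes of end joining did not pass the test. Rag1 (chromosome 2, 101638282 to 101649501), which with Rag2 cuts the receptor loci, measured 86.8, 109, 69.5 and 191 CPM in DN3 and 725, 698, 836 and 780.1 in DP, 6.67-fold higher by the means. Rag2 measured 523, 331, 400 and 852 in DN3 and 1253, 1119, 1161 and 1614 in DP. Both genes were detected in every DN3 library and were higher in every DP library, with log2 differences of 2.74 (SE 0.29, adjusted p = 8.58e-05) and 1.29 (SE 0.27, adjusted p = 0.00432). Dclre1c, which encodes Artemis, the nuclease that opens the hairpin ends, rose by a log2 difference of 1.76 (SE 0.20, adjusted p = 1.45e-04). Dntt, the terminal transferase that adds bases at the joints, stood at 4355, 3967, 3838 and 3406 CPM in DN3 and 3590.2, 3639, 3701 and 3873 in DP; the groups overlapped and the log2 difference of -0.07 did not pass (adjusted p = 0.666). Its sign turned with total counts as the only scaling and with DN3 library RP1140A left out. Xrcc5, the Ku80 subunit of the end-joining complex, fell to a log2 difference of -1.35 (SE 0.23, adjusted p = 0.00144). In the list of recombination and end-joining genes, 5 of 17 were higher, 1 lower (2 without DP library RP1141A) and 11 did not pass, a median of 0.13.

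The receptor loci themselves changed class by class. The alpha J segments, which are transcribed and joined when the alpha locus opens, summed to 2.19 to 2.55 CPM in the first 3 DN3 libraries, 52.99 in RP1141B and 329 to 391 in DP. Among them 46 of 49 rose and none fell, and without RP1141B 50 of 51 rose; without DN3 library RP1140A or RP1141A the number was 26 or 28. Traj20 measured 0, 0, 0.0731 and 3.15 CPM in DN3 and 23.3, 22.03, 18.4 and 19.99 in DP, and Traj9 0, 0, 0 and 3.24 in DN3 against 18.1, 16.8, 22.5 and 21.3 in DP. For these segments the DN3 reads came almost wholly from RP1141B, and the log2 differences were 4.70 (adjusted p = 0.0182) and 4.61 (adjusted p = 0.0274). Without RP1141B the means of Traj20 were 858-fold apart, and Traj9, with no read left in DN3, was at least 86.3-fold higher. The call of Traj9 was lost without DN3 library RP1140A (adjusted p = 0.0533) or RP1141A (0.0557). Because many segments had no read in the remaining DN3 libraries, the class median without RP1141B is given with those segments at the floor of 3 counts per library: 5.09, with 27 segments at the floor.

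The alpha V segments summed to 61.8 to 83.6 CPM in the first 3 DN3 libraries, 149 in RP1141B and 329.9 to 405 in DP. Of 48 segments tested, 24 rose, none fell and 24 did not pass; without RP1141B 43 of 54 rose. Trav14-1 measured 1.23, 1.53, 1.75 and 4.34 CPM in DN3 and 15.96, 14.1, 19.6 and 36.4 in DP, and Trav13-1 0.329, 0.7999, 0.585 and 5.28 in DN3 against 17.03, 37.5, 14.2 and 14.2 in DP. Trav17 stood at 52.1, 42.4, 35.3 and 34.1 in DN3 and 26.00, 34.1, 37.7 and 35.1 in DP, a log2 difference of -0.30 that did not pass (adjusted p = 0.379). Segments of this family resemble each other, so reads can be split between them.

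Beta chain transcripts were present in DN3 and rose. The 22 beta V segments summed to 667 to 1325 CPM in DN3 and 2944 to 3349.8 in DP, with 18 of 22 higher and none lower. Trbv13-2 measured 139, 103, 158 and 143 in DN3 and 264, 236, 334 and 297 in DP, and Trbv12-2 rose by a log2 difference of 1.80 (adjusted p = 1.14e-04). The constant genes Trbc1 and Trbc2 rose by log2 differences of 1.09 (adjusted p = 5.67e-04) and 1.22 (adjusted p = 4.51e-04) on the log2 scale. Of the beta D and J segments, 10 of 15 were higher and none lower; Trbj1-7 measured 72.1, 63.9, 44.8 and 84.6 in DN3 against 129, 153, 133 and 163 in DP.

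Gamma chain transcripts went the other way. The 15 gamma genes summed to 4527 to 5376 CPM in DN3 and 8.47 to 26.3 in DP, and 14 of them fell, none rose. Tcrg-C1, a gamma constant gene, measured 1615, 1316, 1376 and 1431 CPM in DN3 and 4.41, 5.47, 6.61 and 9.61 in DP, a log2 difference of -7.78 (SE 0.27, adjusted p = 1.12e-07). Tcrg-C2 measured 1579.6, 1291, 1558 and 1660.4 in DN3 against 0, 4.83, 0 and 6.66 in DP, and Tcrg-C4 954, 684, 786 and 941 in DN3 against 4.41, 0, 0 and 1.97 in DP. In these genes RP1141B lay within or above the range of the other DN3 libraries. The class median log2 difference was -7.78 with 4 genes without a DP read set at the floor. Trdc, the delta constant gene, which lies within the alpha locus, measured 368, 224, 298 and 306 in DN3 and 125, 76.8, 46.8 and 109.6 in DP; 2 of 7 delta genes, Trdv2-1 and Trdv2-2, rose and 1, Trdc, fell. Only 1 delta gene rose without DN3 library RP1140A or RP1141A or DP library RP1141B, and 2 fell without DP library RP1140B.

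**Figure D3:**
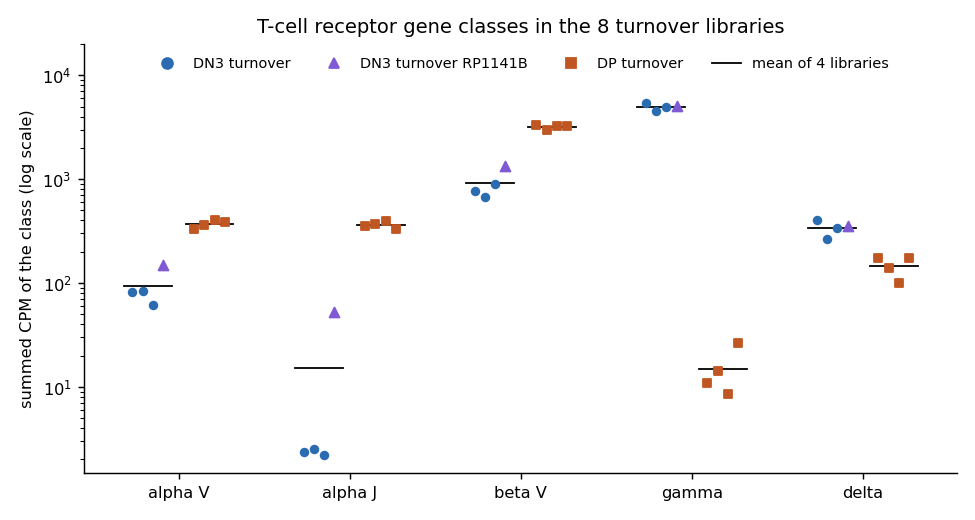
Summed CPM of 5 classes of T-cell receptor genes in each of the 8 turnover libraries (log axis), with DN3 libraries as circles, DN3 library RP1141B as a triangle, DP libraries as squares and the mean of 4 libraries as a line. Alpha and beta segments sit higher in DP, gamma genes sit at 4527 to 5376 CPM in DN3 and at 8.47 to 26.3 CPM in DP, and RP1141B departs from the other DN3 libraries in the alpha J class.

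Among genes of the pre-TCR and of signalling below the receptor, more rose than fell. Ptcra, the pre-TCR alpha chain, measured 259, 229.9, 299 and 309.5 CPM in DN3 and 40.4, 49.3, 38.4 and 51.5 in DP, 6.11-fold lower by the means. Every DP library lay below every DN3 library, and the log2 difference of -2.61 (SE 0.18, adjusted p = 1.50e-05) was -2.52 (adjusted p = 2.17e-05) without RP1141B. Cd3e, a CD3 chain shared by the pre-TCR and the mature receptor, stood at 265, 225, 204 and 190.4 in DN3 against 264, 288, 194 and 198 in DP; the groups overlapped (log2 difference 0.09, adjusted p = 0.726). Cd3g measured 2705, 1836, 2738 and 3157 in DN3 and 1098, 923, 863 and 994 in DP, a log2 difference of -1.43 (SE 0.17, adjusted p = 1.99e-04). The drop of Cd3g was not seen in the autonomy libraries (log2 difference 0.17, adjusted p = 0.49), and the conditions differed (adjusted p = 0.00276, or 0.00819 without RP1141B). Cd5, a surface inhibitor whose level follows receptor signal strength, measured 7.24, 17.7, 29.8 and 45.3 in DN3 and 214, 148, 149 and 149 in DP. Cd6, its close relative, rose by a log2 difference of 2.74 (SE 0.30, adjusted p = 1.06e-04). Over the list of pre-TCR, CD3 and proximal signalling genes, 11 of 25 were higher, 2 (Ptcra and Cd3g) were lower and 12 did not pass, a median of 0.51. A list of genes that respond to receptor signals or positive selection, which shares members with other lists here, gave 10 higher and 7 lower of 29.

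The stretch of 250 bases before the start of Ptcra and of Rag1 is printed because these genes, 1 lower and 1 higher in DP, are classical targets of E proteins, which bind E-boxes. The sequences are from RefSeq (GRCm38.p6), both on the minus strand, 5′ to 3′, at chr17:46763713-46763962 and chr2:101649533-101649782. Capitals mark CAGCTG, an E-box form that reads the same on both strands.
Ptcra: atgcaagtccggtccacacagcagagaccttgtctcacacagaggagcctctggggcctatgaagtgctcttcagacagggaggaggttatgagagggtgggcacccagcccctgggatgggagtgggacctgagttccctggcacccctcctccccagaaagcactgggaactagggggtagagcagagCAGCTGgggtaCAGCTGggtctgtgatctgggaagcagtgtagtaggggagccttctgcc
Rag1: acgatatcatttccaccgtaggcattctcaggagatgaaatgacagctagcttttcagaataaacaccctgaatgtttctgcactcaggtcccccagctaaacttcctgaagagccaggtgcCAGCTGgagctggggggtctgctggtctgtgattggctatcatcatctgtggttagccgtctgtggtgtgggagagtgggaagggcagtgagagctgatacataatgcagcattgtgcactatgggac
Ptcra held 2 matches and Rag1 held 1, and CAGCTG occurred in 13% of all 32851 promoter windows of that length. A match is a description and not a binding site. Cd4, Hes1 and Myc are named without sequence.

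The genes of the Notch branch that passed the test were lower in DP, except 1. Notch1, the receptor that DN3 cells depend on, measured 1429.5, 1522, 1150.1 and 747 CPM in DN3 and 169.8, 126, 169.7 and 111 in DP, 8.42-fold lower by the means. Notch3 measured 106, 155, 85.4 and 45.4 in DN3 against 15.5, 1.98, 7.77 and 13.5 in DP. Both receptors fell to log2 differences of -3.07 (SE 0.25, adjusted p = 3.11e-05) and -3.37 (SE 0.59, adjusted p = 0.00152), and RP1141B was the lowest DN3 library for each. Hes1, a repressor induced directly by Notch, measured 157, 163, 167 and 189 CPM in DN3 and 0, 0, 0 and 3.61 in DP, so that it had no read in 3 of 4 DP libraries. Dtx1, another direct Notch target, measured 48.1, 50.8, 50.96 and 39.5 in DN3 against 1.52, 8.400, 3.53 and 7.21 in DP, and Il2ra, the CD25 chain that marks DN3 cells, 515, 290.1, 438 and 489 in DN3 against 4.11, 11.4, 15.5 and 1.31 in DP. Hes1, Dtx1 and Il2ra fell to log2 differences of -7.82 (SE 1.10, adjusted p = 4.57e-04), -3.17 (SE 0.47, adjusted p = 6.19e-04) and -5.69 (SE 0.61, adjusted p = 9.48e-05), with every DP library below every DN3 library. Without DP library RP1141B no DP read of Hes1 was left. Trib2, a pseudokinase known as a Notch target in T-cell leukaemia, went the other way, from 7.65, 2.98, 2.998 and 11.8 CPM in DN3 to 30.6, 56.9, 63.9 and 52.2 in DP. Of 20 Notch genes tested, 9 fell, 1 (Trib2) rose and 10 did not pass, a median log2 difference of -0.84; without DN3 library RP1140B or RP1141B 2 rose.

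Transcription factors of the T lineage split into those that rose, those that fell and those that did not pass the test. Tcf12, the E protein HEB, measured 266, 337, 204 and 267 CPM in DN3 and 440.3, 428, 551 and 418 in DP, a log2 difference of 0.77 (SE 0.18, adjusted p = 0.00666). Id3, an inhibitor of E proteins induced by receptor signals, measured 77.1, 84.4, 98.05 and 105 in DN3 against 197, 134, 163 and 179 in DP (log2 difference 0.88, adjusted p = 0.0037). Tcf4, another E protein, fell to a log2 difference of -1.16 (adjusted p = 0.0241), a call lost without DN3 library RP1140A, RP1141A or RP1141B or DP library RP1141A or RP1141B (adjusted p = 0.0534 to 0.0688). Of 7 E protein and Id genes tested, 3 rose, 1 fell and 3 did not pass. Tcf7, which encodes TCF1, measured 649, 1036, 659.7 and 629 in DN3 and 1340.4, 1617, 1801 and 1481 in DP, and Ets1 240.3, 233, 160.1 and 213 in DN3 against 674, 686, 839 and 788 in DP. Satb1, a chromatin organiser needed by DP cells, measured 326, 434, 269.7 and 608 in DN3 against 2081, 3290, 3556 and 2954 in DP, 7.26-fold higher by the means. Those 3 genes rose without overlap between the groups, by log2 differences of 1.07 (adjusted p = 0.00152), 1.82 (adjusted p = 4.91e-05) and 2.86 (adjusted p = 5.74e-05). Ikzf3, which encodes Aiolos, rose by a log2 difference of 3.34 (SE 0.39, adjusted p = 1.69e-04), and by less in autonomy (1.53; difference between conditions, adjusted p = 0.00973).

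Lef1 stood at 207, 219, 214 and 271 CPM in DN3 and 156, 277, 197 and 196 in DP, Bcl11b, the T-lineage commitment factor, at 328, 524, 305 and 267 in DN3 against 423, 457, 470 and 474 in DP, and Runx1 at 79.95, 106, 53.9 and 51.7 in DN3 against 38.01, 74.6, 62.3 and 45.99 in DP. The groups overlapped for each, and the log2 differences of -0.14 (adjusted p = 0.609), 0.36 (adjusted p = 0.206) and -0.40 (adjusted p = 0.336) did not pass. Bcl11b passed with DN3 library RP1140B left out (adjusted p = 0.00913). Gata3 measured 329, 296, 456 and 461 in DN3 against 189, 280.1, 190.3 and 265 in DP, a log2 difference of -0.74 (adjusted p = 0.0181), and the call was lost without RP1141B (adjusted p = 0.0595), without DN3 library RP1141A (0.0801) and without DP library RP1140A (0.0635) or RP1141A (0.0669). Erg, an ETS factor of stem and early T-cell progenitors, measured 23.6, 25.9, 12.6 and 14.6 CPM in DN3 and had no read in DP, at least 70.04-fold lower against the floor of 3 counts per library. Sox13, a factor of gamma-delta cells, measured 6.25, 22.3, 10.2 and 6.13 in DN3 against 0, 0.0396, 0 and 0 in DP. Patz1, a zinc-finger repressor, fell to a log2 difference of -1.09 (SE 0.16, adjusted p = 5.03e-04), where the autonomy libraries gave 0.56 (adjusted p = 0.023; difference between conditions, adjusted p = 0.00116). Over the list of T-lineage factors 11 of 34 rose, 6 fell and 17 did not pass. The share that fell is near the 17.7% of all genes tested.

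Cytokine receptor genes moved in both directions. Il7r (chromosome 15, 9505788 to 9530176), the receptor chain for interleukin 7, measured 144, 189, 154 and 117 CPM in DN3 and had no read in any of the 4 DP libraries, at least 551-fold lower. In autonomy its log2 difference was -5.89 (adjusted p = 1.98e-06), and the conditions differed (adjusted p = 0.00293, or 0.00521 without RP1141B). Il4ra, the interleukin 4 receptor chain, measured 4.36, 0.945, 4.09 and 18.1 in DN3 and 96.5, 117, 115 and 142 in DP, and Il21r 68.5, 68.5, 56.2 and 90.6 in DN3 against 204, 275, 247 and 276 in DP. Socs1, an inhibitor of cytokine signalling that limits the IL-7 response, measured 76.9, 68.3, 74.9 and 168 in DN3 against 292, 269, 282 and 299 in DP. Il4ra, Il21r and Socs1 rose by log2 differences of 4.10 (adjusted p = 0.0012), 1.82 (adjusted p = 8.49e-05) and 1.56 (adjusted p = 0.00164), and RP1141B was the highest DN3 library for each. Without it the log2 difference of Il4ra was 5.27 (adjusted p = 7.67e-05). The cytokine receptor list gave 6 higher, 6 lower and 6 not passed of 18.

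Of the survival genes of the Bcl2 family, Bcl2 fell and Bcl2l1 rose. Bcl2 measured 118, 117, 109 and 82.1 CPM in DN3 and 16.1, 10.7, 18.2 and 31.6 in DP, a log2 difference of -2.48 (SE 0.32, adjusted p = 2.85e-04). Bcl2l1, which encodes Bcl-xL, measured 11.9, 18.2, 15.4 and 65.9 in DN3 against 225, 291, 296 and 223 in DP, a log2 difference of 3.22 (SE 0.50, adjusted p = 8.18e-04) and of 4.12 (adjusted p = 6.47e-06) without RP1141B. Neither gene overlapped between the groups. Mcl1, another survival gene, overlapped between the groups and had a log2 difference of 1.40 (adjusted p = 0.0326) that did not pass without RP1141B (adjusted p = 0.0738), without DN3 library RP1140A (0.081) or RP1141A (0.086), or without DP library RP1141A (0.081) or RP1141B (0.0615). Bcl2l14 and Bid, which promote death, fell to log2 differences of -4.35 (adjusted p = 0.0158) and -1.43 (adjusted p = 0.00787); without DP library RP1140A the log2 difference of Bcl2l14 was -5.47 (adjusted p = 0.0085). Of 13 family members tested 2 rose, 4 fell and 7 did not pass; the share that rose is near the 15.8% of all genes tested. The number that rose was 1 without DN3 library RP1140A, RP1141A or RP1141B or DP library RP1141A or RP1141B, and 4 without DN3 library RP1140B.

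Among genes of earlier progenitors and of the gamma-delta lineage, more fell than rose. Kit, the stem cell factor receptor, measured 60.5, 83.5, 49.1 and 33.8 CPM in DN3 and 10.9, 12.9, 17.6 and 0.218 in DP, a log2 difference of -2.44 (SE 0.76, adjusted p = 0.03); without DN3 library RP1140A, RP1140B or RP1141A, or DP library RP1140A, the adjusted p was 0.0599 to 0.0691. Cpa3, a carboxypeptidase of progenitors and mast cells, measured 117, 52.4, 98.05 and 125 in DN3 against 0, 1.94, 0.128 and 0 in DP. Ly6a, the Sca-1 antigen, measured 60.5, 23.7, 32.7 and 23.00 in DN3 against 1.06, 0, 0 and 0.874 in DP. Cpa3 and Ly6a fell to log2 differences of -7.12 (adjusted p = 2.18e-04) and -6.49 (adjusted p = 0.00132). These sizes rest on few DP reads: without DP library RP1140B they were -10.37 (adjusted p = 3.06e-05) and -5.88 (adjusted p = 0.00148), and without DP library RP1140A or RP1141B that of Ly6a was -7.31 or -7.32. Lmo4, a LIM-domain partner of transcription factors, rose by a log2 difference of 1.15 (adjusted p = 0.00242). Of 12 early progenitor genes tested 7 fell and 1, Lmo4, rose, a median log2 difference of -3.24; without RP1141B 5 of 14 fell, and without DN3 library RP1140A or RP1141A 3 or 4 fell. Blk, a Src family kinase of B and IL-17-producing gamma-delta cells, measured 33.6, 23.6, 17.3 and 27.3 CPM in DN3 and had no read in DP, at least 92.8-fold lower. 5830411N06Rik, a scavenger receptor gene, measured 148, 172, 63.2 and 52.2 in DN3 and had no read in DP, at least 398-fold lower. Il17re, a receptor of the IL-17 family, went from 1.81, 3.93, 4.53 and 4.601 to 6.69, 34.8, 16.8 and 48.4 CPM, and Nr4a1, an immediate target of receptor signalling, from 14.9, 22.03, 15.1 and 24.5 to 50.9, 118, 54.8 and 27.7. The gamma-delta list gave 9 lower and 4 higher of 14, with a median of -5.06 when the 3 genes without a DP read are set at the floor.

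Most receptors for migration and adhesion rose. Ccr9, the receptor for the thymic chemokine CCL25, measured 265, 342, 139.7 and 419 CPM in DN3 and 2004, 2479, 2478 and 2442 in DP, a log2 difference of 3.01 (SE 0.29, adjusted p = 6.48e-05). In autonomy the difference was 7.78 (adjusted p = 6.50e-08), and the conditions differed (adjusted p = 1.25e-04, or 1.46e-04 without RP1141B). Ccr4 measured 0, 0.218, 1.75 and 2.300 in DN3 against 14.7, 30.6, 36.3 and 12.7 in DP. Plxnd1, a semaphorin receptor of thymocytes, measured 4.03, 9.09, 3.66 and 11.9 in DN3 against 106, 95.9, 145 and 139.8 in DP. Adgre5, the adhesion receptor CD97, measured 10.8, 1.38, 14.3 and 41.1 in DN3 against 164, 229.8, 155 and 176 in DP. For Ccr9, Ccr4, Plxnd1 and Adgre5 every DP library was above every DN3 library. The list gave 12 higher, 1 lower and 8 not passed of 21, a median of 1.57; the number that fell was 3 without RP1141B and 2 without DN3 or DP library RP1140B. Cd2 and Cd52, surface proteins of maturing T cells, are among the genes that were high in RP1141B: Cd2 measured 11.5, 7.78, 11.3 and 90.4 in DN3 and 234, 209.5, 204 and 202 in DP, and Cd52 10.8, 9.16, 13.7 and 89.5 in DN3 against 354, 239, 287 and 272 in DP. The log2 differences of Cd2 and Cd52 were 2.82 (adjusted p = 0.0107) and 3.23 (adjusted p = 0.00454) with RP1141B, and 4.41 (adjusted p = 3.26e-06) and 4.71 (adjusted p = 3.26e-06) without it.

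**Figure D4:**
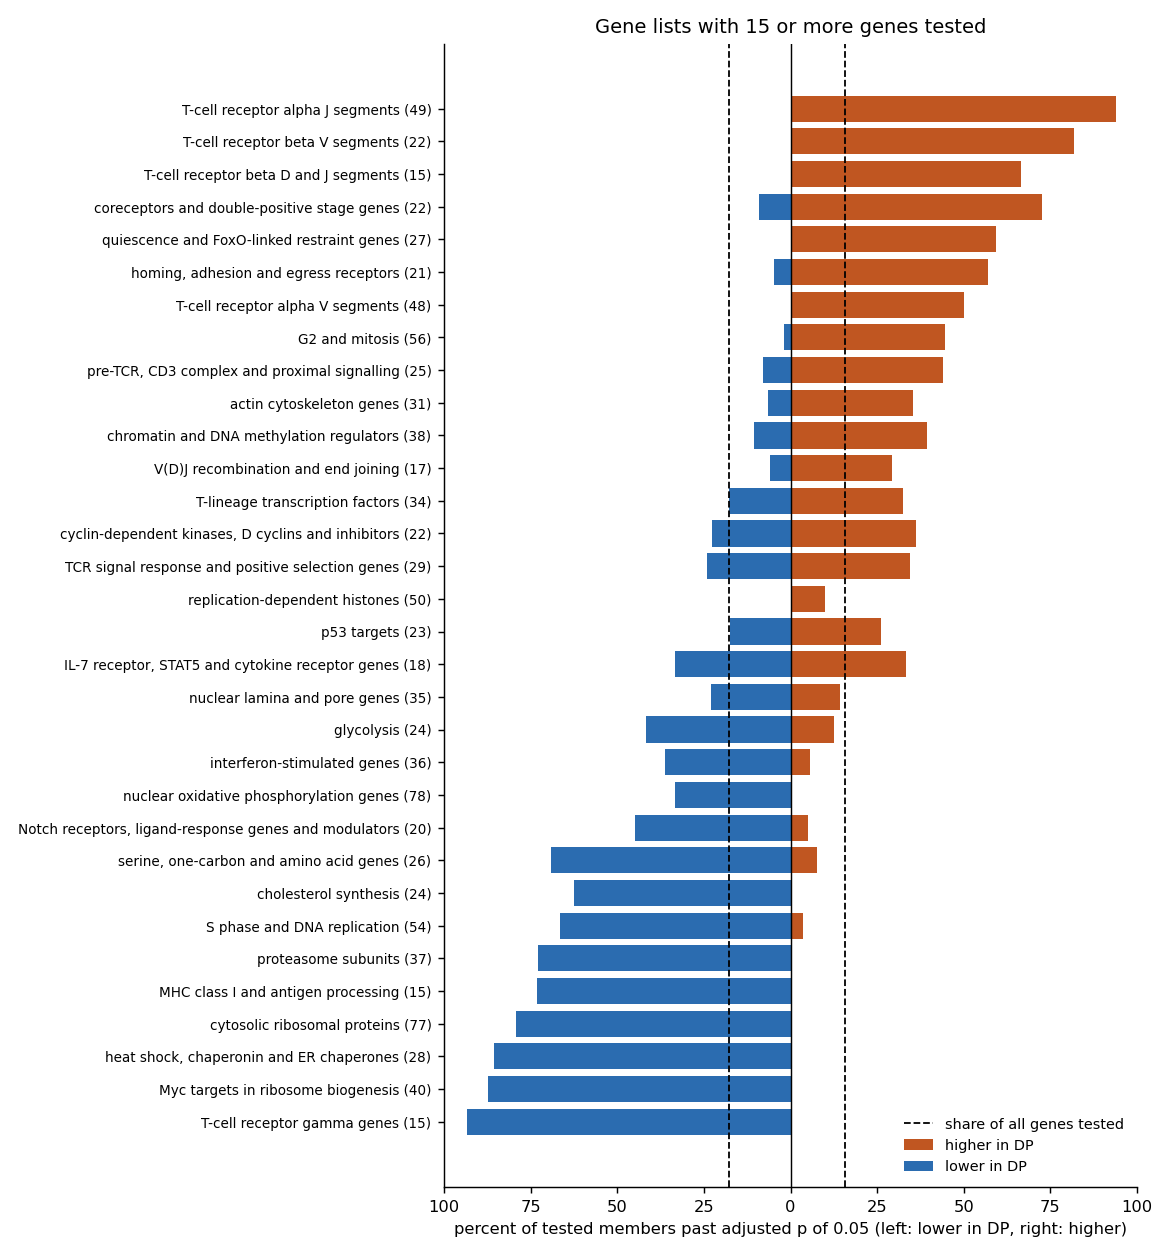
Percent of tested members of each gene list with at least 15 genes tested (number in brackets) that were lower (left) or higher (right) in DP at an adjusted p under 0.05; dashed lines give the share over all genes tested, 17.7% lower and 15.8% higher. Alpha J, beta V and DP stage lists extend far to the right of their line, and gamma, ribosome biogenesis, chaperone and ribosomal protein lists far to the left.

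The cell cycle programme split into phases. Of 54 S phase and DNA replication genes tested, 36 fell, 2 rose and 16 did not pass, a median log2 difference of -0.99. Ung, the uracil glycosylase of replicating DNA, measured 61.2, 65.2, 74.4 and 74.6 CPM in DN3 and 6.08, 11.4, 12.3 and 18.03 in DP. Gins2, a part of the replicative helicase, measured 55.7, 71.6, 59.2 and 73.01 in DN3 against 18.9, 19.02, 13.2 and 21.6 in DP, and Chaf1b, a histone chaperone at the fork, 199.6, 212, 226 and 264 in DN3 against 38.8, 67.3, 50.6 and 101.5 in DP. These genes fell to log2 differences of -2.52 (adjusted p = 2.51e-04), -1.84 (adjusted p = 3.08e-04) and -1.80 (adjusted p = 7.02e-04). E2f2, a factor of the E2F family, rose from 54.5, 40.6, 37.00 and 50.4 to 138, 181, 142 and 135 CPM. The other gene that passed, Clspn, a checkpoint adaptor, measured 60.3, 65.1, 53.2 and 45.4 in DN3 against 114, 64.7, 100.8 and 81.6 in DP, with overlap between the groups (log2 difference 0.69, adjusted p = 0.0364). Its call was lost without RP1141B (0.63, adjusted p = 0.0713), without DN3 library RP1140A or RP1141A, and without DP library RP1140A or RP1141A (adjusted p = 0.0588 to 0.0763). In autonomy Clspn was lower in DP (-1.24, adjusted p = 0.00361; difference between conditions, adjusted p = 0.00797, or 0.0196 without RP1141B).

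The 56 tested genes of G2 and mitosis behaved differently: 25 rose, 1 fell and 30 missed the threshold, a median of 0.59; without RP1141B 20 of 57 rose and 1 fell. Mki67, the Ki-67 antigen of cycling cells, measured 337, 367, 372 and 227 CPM in DN3 and 969.6, 882, 599.7 and 657 in DP. Cenpe, a kinetochore motor, measured 163, 142, 178 and 246 in DN3 against 666, 499, 342 and 398 in DP, Cenpf, a kinetochore protein of late G2, 92.9, 105, 129 and 119.6 in DN3 against 336, 343, 244 and 217 in DP, and Hmmr, a spindle protein, 105, 88.2, 105 and 105 in DN3 against 315, 313, 175 and 220.1 in DP. All DP libraries were above all DN3 libraries for these 4 genes, and the RP1140A and RP1140B DP libraries were higher than the RP1141A and RP1141B DP libraries. Their log2 differences were 1.25 (SE 0.21, adjusted p = 0.00124), 1.39 (adjusted p = 0.00144), 1.35 (adjusted p = 5.47e-04) and 1.34 (adjusted p = 7.82e-04). Cks1b, a partner of the cyclin-dependent kinases, was the gene that fell (-0.72, adjusted p = 0.00853).

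In the autonomy libraries the same mitotic list lay the other way: 44 of 56 members were lower in DP and none higher, a median of -1.09. The stage difference differed between the conditions for 46 of 57 members, each lower in autonomy, and for 41 without RP1141B, against 5.49% and 3.58% of all genes tested. For Mki67 that difference was -2.15 (adjusted p = 0.0023; 0.00604 without RP1141B), for Cenpe -1.84 (adjusted p = 0.00918) and for Hmmr -2.42 (adjusted p = 0.00119). S phase genes were lower in DP in both conditions, 52 of 54 in autonomy at a median of -2.12, and the difference between conditions passed for 28 of them. Replication-dependent histones, whose messages mostly lack poly(A) tails, gave 5 higher and 0 lower of 50, or 3 higher without DN3 library RP1140A, RP1141A or RP1141B or DP library RP1141A.

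**Figure D5:**
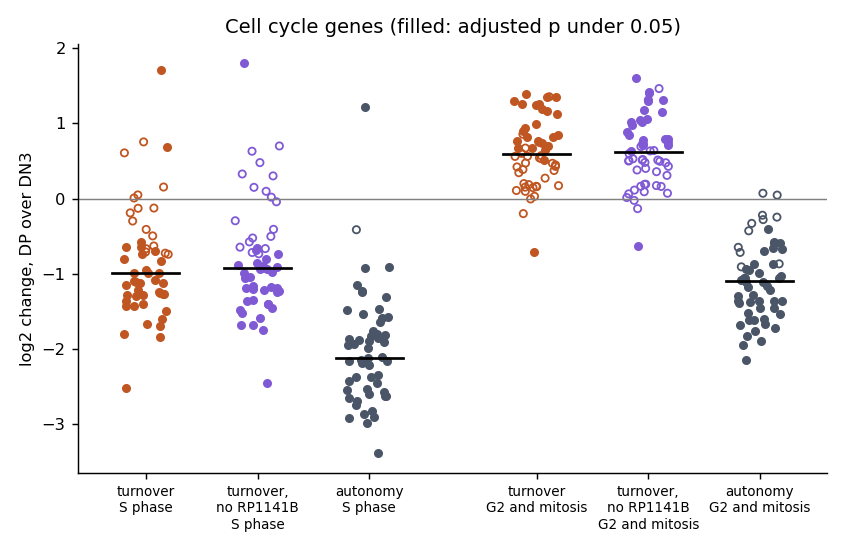
Log2 difference, DP over DN3, of each S phase and each G2 and mitosis gene in the turnover libraries, in the turnover libraries without RP1141B and in the autonomy libraries; each point is 1 gene, filled where the adjusted p was under 0.05, and lines are medians. The mitotic genes have a median of 0.59 in turnover and -1.09 in autonomy, and the S phase genes -0.99 and -2.12.

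The window before Cenpf is printed because 25 of the mitotic genes rose and the CCAAT box, bound by the factor NF-Y, is the classical element of their promoters. Cenpf was picked by its adjusted p among genes of the list with 1 window that held CCAAT. Its matches were thus a condition of the choice and not a result. It lies at chr1:189688087-189688336 on the minus strand (GRCm38.p6, RefSeq), with CCAAT matches in capitals.
Cenpf: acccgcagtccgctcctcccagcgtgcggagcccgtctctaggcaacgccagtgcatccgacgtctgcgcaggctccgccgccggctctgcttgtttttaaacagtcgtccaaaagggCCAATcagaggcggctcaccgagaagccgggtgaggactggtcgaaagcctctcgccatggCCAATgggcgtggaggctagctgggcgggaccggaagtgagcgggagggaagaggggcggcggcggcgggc
Of 56 genes of the mitotic list, 45 had a window, some more than 1, and CCAAT on either strand occurred in 34 of 48 windows (70.8%), against 33.8% of all windows and 36.1% of those of the genes tested. For the ribosome biogenesis genes below, 34 of 40 had a window, and CACGTG, the E-box form that Myc binds, occurred in 5.26% of their windows against 6.02% of all windows and 8.56% of those of the genes tested. For the S phase genes, most of which fell, 42 of 54 had a window, so the count is incomplete, as are those above. In those 42, CCAAT occurred in 29 of 48 windows (60.4%). The matches are therefore not given as particular to genes that rose.

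Regulators of the cycle moved in both directions. Ccnd2, the cyclin D of early thymocytes, measured 458, 363, 580 and 556 CPM in DN3 and 14.6, 3.65, 0 and 6.66 in DP. Ccnd3, the cyclin D needed for expansion after beta-selection, measured 308, 309, 319 and 453 in DN3 against 1245, 1259, 1115 and 1133 in DP, a rise of 1.77 (SE 0.16, adjusted p = 4.76e-05); it was smaller in autonomy (0.60; difference between conditions, adjusted p = 0.00432). Cdk6, the kinase partner of the D cyclins, measured 334, 495, 233 and 138 in DN3 against 14.4, 20.8, 21.1 and 30.8 in DP. Ccnd2 and Cdk6 fell to log2 differences of -6.41 (SE 0.89, adjusted p = 4.11e-04) and -3.78 (SE 0.39, adjusted p = 8.49e-05). Cdkn1b, the inhibitor p27, measured 17.9, 51.7, 19.01 and 30.6 in DN3 and 180.3, 197, 259.5 and 217 in DP, and Cdkn1a, the inhibitor p21, 61.6, 64.8, 75.5 and 70.2 in DN3 against 1.06, 0.515, 3.402 and 1.97 in DP. The inhibitors went opposite ways, by 2.84 (SE 0.34, adjusted p = 1.75e-04) and -5.28 (SE 0.53, adjusted p = 6.94e-05). Without DP library RP1140A the log2 difference of Ccnd2 was -7.18, and without DP library RP1141A that of Cdkn1a was -5.89. Rb1, the retinoblastoma protein that holds cells in G1, measured 18.5, 59.7, 7.17 and 13.4 in DN3 against 199, 118, 275 and 145 in DP. The list of kinases, D cyclins and inhibitors gave 8 higher, 5 lower and 9 not passed of 22.

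Myc fell, and so did most genes of a list of its targets in ribosome biogenesis. Whether the change of these genes depends on Myc was not tested. Myc measured 611, 692, 824 and 716 CPM in DN3 and 32.7, 43.7, 54.8 and 43.9 in DP, 16.2-fold lower by the means, a log2 difference of -4.02 (SE 0.20, adjusted p = 1.54e-06). Mxd4, a Myc antagonist, rose from 35.7, 42.7, 34.6 and 44.5 to 101.4, 83.8, 114 and 84.3 CPM, and Mga, another member of the network, by 0.77 (adjusted p = 0.00911). Of 40 Myc targets in ribosome biogenesis, 35 fell and none rose, a median of -2.09. Srm, spermidine synthase, measured 328, 344, 481 and 378 CPM in DN3 and 6.39, 22.2, 19.2 and 25.02 in DP, Gnl3, nucleostemin, 470.5, 311, 568 and 486 in DN3 against 76.3, 27.4, 38.1 and 60.7 in DP, and Rrp12 35.9, 41.8, 55.4 and 38.4 in DN3 against 0, 0, 4.04 and 1.64 in DP. Their log2 differences were -4.38 (SE 0.37, adjusted p = 3.44e-05), -3.19 (adjusted p = 8.11e-05) and -4.87 (adjusted p = 0.006); without DP library RP1141A that of Rrp12 was -6.40.

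Most genes of the structural proteins of the ribosome were lower as well. Of 77 cytosolic ribosomal protein genes 61 fell, none rose and 16 did not pass, a median of -1.01; without RP1141B 68 fell. Rps2 measured 686, 730.3, 864 and 394 CPM in DN3 against 178, 197, 171 and 153 in DP, and Rpl3 1167, 1367, 1323 and 724 in DN3 against 325, 336, 277 and 287 in DP. RP1141B was the lowest DN3 library for Rps2 and Rpl3, and still above every DP library. Protein folding and turnover genes fell as well: 24 of 28 chaperones (median -1.38) and 27 of 37 proteasome subunits (median -0.70), with none higher in either list. Without DP library RP1141A 1 chaperone was higher. Without DN3 library RP1141A 16 proteasome subunits fell. Hspd1, the mitochondrial chaperonin, measured 846, 729, 1203 and 932 in DN3 against 144, 153, 137 and 116 in DP. Its partner Hspe1 fell to a log2 difference of -2.39 (adjusted p = 6.69e-05), the mitochondrial Hsp70 gene Hspa9 to -2.18 (adjusted p = 3.32e-05) and the proteasome lid gene Psmd7 to -1.54 (adjusted p = 9.22e-05).

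Among metabolic genes more fell than rose, but in glycolysis and oxidative phosphorylation many did not pass. Of 26 serine, one-carbon and amino acid genes 18 fell, 2 rose and 6 did not pass, a median of -1.43. Shmt1 and Shmt2, the serine hydroxymethyltransferases, measured 171, 140.2, 204 and 182 and 329, 341, 373 and 278 CPM in DN3, and 21.6, 2.22, 1.54 and 4.59 and 49.3, 52.1, 50.4 and 71.2 in DP. Mthfd1 of the folate cycle fell to a log2 difference of -2.99 (adjusted p = 0.00108). Slc7a11, the cystine transporter, rose from 0, 0.145 and 1.17 CPM in the first 3 DN3 libraries and 15.6 in RP1141B to 46.2, 86.97, 95.6 and 77.1 in DP; without DN3 library RP1141A its adjusted p was 0.0611, and the number of genes of the list that rose was 1. Its log2 difference was 4.19 (adjusted p = 0.0205) with RP1141B and 7.42 (adjusted p = 2.01e-04) without it. Slc38a2, a neutral amino acid transporter, rose by a log2 difference of 1.03 (adjusted p = 0.00321). Of 24 cholesterol genes 15 fell, none rose and 9 did not pass, a median of -1.08. The synthesis enzymes Sqle and Lss fell to log2 differences of -2.94 (adjusted p = 0.00232) and -3.13 (adjusted p = 0.0067), or to -3.68 for Sqle without DP library RP1140A and -3.75 for Lss without DP library RP1140B.

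In glycolysis 10 of 24 genes fell, 3 rose and 11 did not pass. Tpi1, triosephosphate isomerase, measured 313, 292, 380 and 249 CPM in DN3 and 81.6, 91.6, 72.3 and 60.9 in DP, and Aldoc, an aldolase, 7.896, 8.22, 15.4 and 9.88 in DN3 against 0, 0, 0 and 0.437 in DP. Ldhb, the lactate dehydrogenase chain that favours pyruvate, went up from 256, 196 and 305 CPM in the first 3 DN3 libraries and 739 in RP1141B to 1104, 991, 1009.8 and 950.4 in DP. Pdk1, which closes the entry of pyruvate into the mitochondrion, measured 75.5, 82.6, 71.8 and 83.6 in DN3 against 173, 179, 241 and 215 in DP. They rose by log2 differences of 1.44 (SE 0.35, adjusted p = 0.00961) and 1.37 (SE 0.17, adjusted p = 2.02e-04), that of Ldhb being 2.04 (adjusted p = 3.67e-05) without RP1141B, and the other gene that rose was Pfkp, a phosphofructokinase. Of 78 nuclear genes of oxidative phosphorylation 26 fell, none rose and 52 did not pass, a median of -0.55. The number that fell was 40 without DN3 library RP1140B and 14 without DN3 library RP1141A. Atp5g1 fell to a log2 difference of -1.87 (adjusted p = 2.55e-04) and Cycs, cytochrome c, to -1.49 (adjusted p = 4.53e-04). Of the 13 mitochondrially encoded genes 8 fell and none rose. Their spread in DN3 was wide: mt-Co3 measured 85.5, 18.5, 228 and 270.4 in DN3 and 18.7, 16.8, 4.62 and 12.02 in DP, and mt-Atp6 760, 195, 483 and 301 in DN3 against 90.8, 101.1, 89.03 and 132 in DP. The groups overlapped for mt-Co3 (adjusted p = 0.00395) and not for mt-Atp6 (adjusted p = 0.00153).

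Many genes of quiescence rose. Of 27 genes of quiescence and FoxO-linked restraint 16 rose, none fell and 11 did not pass, a median of 1.16. Btg1, an antiproliferative gene, measured 47.5, 46.7, 43.7 and 83.2 CPM in DN3 and 317, 256, 234 and 301 in DP. Btg2, its relative, measured 109, 93.9, 112 and 229 in DN3 against 478, 435, 438 and 480.5 in DP, and Ccng2, a cyclin induced by FoxO, 40.1, 35.99, 19.7 and 45.3 in DN3 against 201, 215, 219 and 291 in DP. None of these overlapped between the groups. Btg2 rose by a log2 difference of 1.75 here and by 3.22 in autonomy (difference between conditions, adjusted p = 0.0106, or 0.0169 without RP1141B). Among 23 p53 targets 6 rose, 4 fell and 13 did not pass. The share that fell is near the 17.7% of all genes tested, and 2 fell without DN3 library RP1141A. Trp53 itself measured 371, 389.6, 375 and 365 in DN3 and 89.7, 133, 159 and 83.03 in DP, a log2 difference of -1.69 (SE 0.21, adjusted p = 2.51e-04). Fas, a death receptor and p53 target, measured 10.3, 13.4, 2.05 and 54.7 in DN3 against 246, 243, 295 and 316 in DP, and Trp53inp1 97.1, 150.3, 75.02 and 109.8 in DN3 against 425, 398, 697 and 546 in DP.

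Most genes of class I antigen presentation were lower, while most interferon-stimulated genes did not pass the test. Of 15 MHC class I and antigen processing genes 11 fell and none rose, a median of -1.08. H2-K1, a classical class I heavy chain, measured 1227, 729, 949 and 1275 CPM in DN3 and 155, 131, 48.98 and 114 in DP, and B2m, its light chain, 3699, 2989, 2967 and 3052 in DN3 against 897, 709, 685 and 919 in DP. Psmb10, an immunoproteasome subunit, fell to a log2 difference of -1.64 (adjusted p = 1.07e-04). Genes of the H2 family resemble each other, so the value of H2-K1 is uncertain where reads are shared. Of 36 interferon-stimulated genes 13 fell, 2 rose and 21 did not pass; 1 rose without DN3 library RP1140A. Oasl2, an antiviral gene, measured 55.4, 22.8, 22.8 and 25.7 and had no read in DP, at least 116-fold lower, and Ifi44 measured 66.9, 53.1, 44.5 and 18.7 in DN3 against 0, 0, 0 and 2.73 in DP. In autonomy 7 of 36 were lower and 4 higher, against 25.9% and 26.5% of all genes there. Gimap GTPases, which support lymphocyte survival, were higher: 5 of 7 rose and none fell, and with any 1 library left out 2 to 5 rose. Gimap8 measured 6.66, 7.27, 7.02 and 23.3 in DN3 against 115, 134, 121 and 157 in DP, and Gimap6 96.1, 104, 109 and 338 in DN3 against 423, 476, 563 and 523 in DP; in each RP1141B was the highest DN3 library. Their log2 differences were 3.58 (adjusted p = 1.78e-04) and 1.62 (adjusted p = 0.00773), and 4.27 (adjusted p = 5.83e-06) and 2.30 (adjusted p = 1.65e-05) without it.

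Nuclear and cytoskeletal genes were mixed. Among 38 chromatin regulators 15 rose, 4 fell and 19 did not pass. Setd2, the H3K36 methyltransferase, rose by a log2 difference of 1.49 (SE 0.20, adjusted p = 3.92e-04). Rad21, a cohesin subunit, measured 38.99, 53.5, 40.9 and 35.6 CPM in DN3 and 133, 116, 123 and 136 in DP. Dnmt3b, a de novo DNA methyltransferase, measured 59.3, 67.4, 46.1 and 22.9 in DN3 against 4.56, 0.674, 0 and 0 in DP, and Uhrf1, the partner of maintenance methylation, 692, 778, 684 and 503 in DN3 against 239.8, 318, 210.2 and 322 in DP. Both methylation genes fell. In the nuclear lamina and pore list 5 of 35 rose, 8 fell and 22 did not pass, near the 15.8% and 17.7% of all genes, and 3 rose without DN3 library RP1141A. Lmnb1, lamin B1, and Lbr, the lamin B receptor, rose by log2 differences of 0.67 (adjusted p = 0.00568) and 0.75 (adjusted p = 0.00235), while Nup93 of the pore and Ran, the transport GTPase, fell to log2 differences of -1.42 (adjusted p = 0.00861) and -1.39 (adjusted p = 8.37e-05). Lmnb1 was lower in DP in autonomy (-0.89; difference between conditions, adjusted p = 2.41e-04). Of 31 actin cytoskeleton genes 11 rose, 2 fell and 18 did not pass; 1 fell with any 1 library except DN3 RP1140B left out. Lsp1, a leukocyte actin-binding protein, measured 49.9, 45.2, 32.8 and 238 in DN3 against 627, 632, 571 and 550.5 in DP (log2 difference 2.70, adjusted p = 0.00398, and 3.84 (adjusted p = 3.17e-06) without RP1141B). Diaph1, a formin, rose by a log2 difference of 1.73 (adjusted p = 1.31e-04), and Lcp1, L-plastin, fell to a log2 difference of -1.01 (adjusted p = 0.00233).

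Genes were ranked if called with and without RP1141B, averaging at least 10 CPM in DP and without overlap once RP1141B was left out. Predicted genes, T-cell receptor and immunoglobulin segments, pseudogenes and near-identical members of gene families were set aside. Among those ranked, Nav2, a neuron navigator gene, had the largest fitted rise in the fit with RP1141B. It measured 0.905, 0, 0 and 1.62 CPM in DN3 and 34.7, 55.8, 78.95 and 42.1 in DP, 83.8-fold higher by the means and 175-fold without RP1141B. Without that library the order was another. Of the ranked genes named here, Cd4 and Cd8a, with the values above, and Adam12 (log2 difference 8.12) then exceeded Nav2 (7.52). Smoc1 and Esrp2, with no DN3 read left, had larger fitted values too, but those are no bound. Adam12, a metalloprotease, measured 0, 0.145, 0.0731 and 1.36 in DN3 against 6.08, 9.67, 36.4 and 39.8 in DP, and Esrp2, a splicing regulator of epithelia, 0, 0, 0 and 1.19 in DN3 against 15.5, 18.3, 5.199 and 15.9 in DP. Smoc1, a secreted calcium-binding protein, measured 0, 0, 0 and 4.86 in DN3 against 36.8, 42.3, 39.99 and 23.3 in DP. In Adam12, Esrp2 and Smoc1 most of the DN3 reads were in RP1141B; without it the means of Adam12 were 315-fold apart, and Esrp2 and Smoc1, with no DN3 read left, were at least 60.2-fold and 156-fold higher. Medag, Smyd1, a muscle methyltransferase, Crybg1 and Cacnb3, a calcium channel subunit, rose by log2 differences of 4.96 (adjusted p = 0.00938), 4.85 (adjusted p = 0.00137), 4.68 (adjusted p = 0.00116) and 4.48 (adjusted p = 0.0144). Without RP1141B these were 7.19 (adjusted p = 0.00149), 5.78 (adjusted p = 7.78e-04), 4.66 (adjusted p = 0.00382) and 5.24 (adjusted p = 0.017). Crybg1 was at 0.341 CPM in RP1141B and 0.0731 to 0.727 in the other DN3 libraries.

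Some genes had reads in 1 stage only. Among genes lower in DP, 106 had no read in any of the 4 DP libraries, while 4 of the higher genes had no read in the 4 DN3 libraries, or 91 when RP1141B was left out. Beside Il7r, 5830411N06Rik, Oasl2, Blk and Erg, the fallen genes without a DP read include Bst1, the CD157 enzyme of stromal and early lymphoid cells, at 111, 73.7, 103 and 102 CPM in DN3 (at least 355-fold lower). Clec12a, an inhibitory lectin receptor, measured 85.2, 58.1, 62.7 and 81.8 in DN3 (at least 263-fold lower), and Serpinb1a, a protease inhibitor, 70.2, 55.1, 38.4 and 35.7 (at least 182-fold lower). Tifa, an adaptor of NF-kB signalling, measured 43.2, 33.01, 39.2 and 40.98 (at least 143-fold lower), Khdc1a 29.3, 24.9, 38.8 and 36.3 (at least 118-fold lower) and Mpzl2, an adhesion protein of thymic cells, 38.3, 25.3, 34.1 and 28.2 (at least 115-fold lower). Acot5, Mzb1 and Lrp1 were lower by at least 96.98-fold, 78.96-fold and 77.4-fold. RP1141B was the lowest DN3 library for Serpinb1a and Lrp1 and lay within the range of the others for the remaining 7.

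Markers of other cells were checked against the sort. The 10 B-cell markers summed to 708 to 1587 CPM in DN3 and 1325 to 1763 in DP; Ighm gave most of this, Ms4a1 had no read and 5 averaged under 1 CPM. The 12 NK and innate lymphoid markers summed to 1289 to 1787 CPM in DN3 and 209 to 518 in DP. Gzma, granzyme A, made up most of it, at 1445, 1157, 1632 and 1219 in DN3 and 396, 160, 195 and 209 in DP, a log2 difference of -2.51 (SE 0.28, adjusted p = 1.15e-04), while Ncr1 had no read. Nkg7, a granule gene, averaged 147 ± 23.9 in DN3 and 12.3 ± 24.6 in DP (SD, n = 4 each), where DP library RP1140A held 49.1 CPM, and did not pass (log2 difference -3.67, adjusted p = 0.0958; without that library 1.26e-05). Other members, named after their values were seen, lay the other way: Klrd1, Klrk1 and Gzmb had no DN3 read and averaged 5.78, 3.12 and 1.60 CPM in DP, and Tbx21 averaged 1.22 and 6.89. Prf1, perforin, averaged 0.575 ± 1.15 CPM in DN3, all of it from RP1141B, and 9.67 ± 5.88 in DP (adjusted p = 0.0614), and was called higher without RP1141B (adjusted p = 0.00141). The 10 thymic epithelial markers summed to 116 to 161 CPM in DN3 and 36.1 to 66.7 in DP. Epcam fell, from 93.7, 94.6, 118 and 113 to 14.1, 5.43, 4.36 and 6.01 CPM, and Foxn1, Krt5 and Krt14 had no read. Without Epcam the list summed to 21.7 to 48.1 CPM in DN3 and 26.8 to 60.7 in DP. Cldn4, Ccl25, Prss16 and Krt8 averaged 15.8, 10.35, 0.894 and 0.107 CPM in DN3 and 22.5, 12.04, 4.15 and 3.50 in DP. Aire averaged 2.46 CPM in DN3 and 0.19 in DP. The 11 dendritic cell markers summed to 244 to 334 CPM in DN3 and 51.5 to 112 in DP, led by Bst2 with 221 to 303 and 43.1 to 79.8 CPM, and Clec9a had no read. Bst2 fell with and without RP1141B, to log2 differences of -2.14 (adjusted p = 8.53e-05) and -2.17 (adjusted p = 1.69e-04). H2-Ab1, a class II chain, fell to -1.99 (adjusted p = 0.0166), a call lost without RP1141B (adjusted p = 0.0517) or DN3 library RP1141A (0.0742). Other members were higher in DP by their means, at low levels. H2-Aa averaged 0.913 CPM in DN3 and 2.28 in DP, H2-Eb1 1.66 and 3.98, Cd74 0.696 and 2.47, and Flt3 0.0914 and 1.45. Siglech and Xcr1 had reads in DN3 only, at means of 0.11 and 0.103 CPM. The 12 fibroblast and endothelial markers summed to 92.9 to 116 CPM in DN3 and 105 to 181 in DP, led by Pecam1, with no read of Col1a1 or Pdgfra. The 10 macrophage markers summed to 23.2 to 39.6 CPM in DN3 and 3.53 to 44.6 in DP, with no read of C1qc or Cd14. Of 11 erythroid and platelet markers, which summed to 4.601 to 9.14 CPM in DN3 and 4.69 to 9.504 in DP, 7 had no read. Epor passed as lower (adjusted p = 0.0425), a call lost without RP1141B (adjusted p = 0.063) and without any other 1 library except DP RP1140B (adjusted p = 0.0668 to 0.159). Of 12 mast cell and granulocyte markers, Cpa3 was the one above an average of 1 CPM. The kidney markers Umod, Slc34a1, Aqp1 and Slc22a6 had no read. The part of other cells in the results was not tested beyond these levels.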

How the data were processed

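RNA was sequenced from sorted mouse thymocytes. The authors deposited whole-number counts per gene for 18 libraries, used here as deposited; HISAT2, featureCounts, FastQC, DESeq2 and the builds GRCm38 and mm10 are named in the submitters' processing notes, with no versions, and the sources used here give no strand setting. The authors' deposited tables of autonomy against turnover were not used. Of 22619 gene identifiers, 22601 matched GENCODE M21. DP turnover was compared with DN3 turnover (4 libraries each) with edgeR 4.0.16 in R 4.3.3: filterByExpr, TMM, quasi-likelihood fit, Benjamini-Hochberg threshold 0.05. The fit was checked on simulated data. Folds for genes without a read in a group use a floor of 3 counts per library. Alternatives were other scaling, no filter, DESeq2 1.42.0, limma 3.58.1, each library left out, a replicate block and summed libraries. The interaction without RP1141B was added after seeing the data. The members and gene lists were chosen with earlier results of these data known. Named genes were 33 listed genes, the 12 largest rises and 12 largest falls, and up to 3 members per list and direction. The rises and falls had a mean of 10 CPM or more in the higher stage and were called with and without RP1141B. Their groups did not overlap without that library. Predicted genes, T-cell receptor and immunoglobulin segments, pseudogenes and near-identical members of gene families were left out of the rises and falls. Members whose call was unstable when libraries were left out were partly dropped after their values were seen. Other genes named singly were chosen after their values were seen. Promoter windows are RefSeq's, 250 bases before each start. Some items are not reported here.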

Additional observations from a re-analysis of the deposited data

Results flagged for a closer look

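In 50 of 326 groups of 4 libraries examined (163 genes, each in DN3 and in DP), 1 library lay far from the other libraries by Dixon's criterion at its 95% critical value. A group with reads in 1 library only meets this criterion by construction, and a group without any read cannot meet it. The number of groups is therefore not set against chance. In 23 of the 50 that library was DN3 RP1141B. DN3 library RP1141B stood above the others for Cd4 (140.3), Cd8a (400.3), Cd8b1 (639), Trav14-1 (4.34), Trav13-1 (5.28), Traj20 (3.15), Traj9 (3.24), Socs1 (168), Bcl2l1 (65.9), Cd2 (90.4), Cd52 (89.5), Ccnd3 (453), Slc7a11 (15.6), Btg2 (229), Btg1 (83.2), Gimap8 (23.3), Gimap6 (338), Lsp1 (238), Adam12 (1.36), Esrp2 (1.19), Smoc1 (4.86) and Prf1 (2.300), in CPM. DN3 library RP1141B stood below the others for Patz1 (361), in CPM. DP library RP1140A stood above the others for Cd5 (214), Shmt1 (21.6), Dnmt3b (4.56), Epcam (14.1) and Nkg7 (49.1), in CPM. DP library RP1140A stood below the others for Cd4 (674) and Ccr9 (2004), in CPM. DP library RP1140B stood above the others for Cd8a (2422), Trav13-1 (37.5), Sox13 (0.0396), Cpa3 (1.94), E2f2 (181) and Epor (0.475), in CPM. DP library RP1140B stood below the others for Rgcc (486), in CPM. DP library RP1141B stood above the others for Hes1 (3.61), Aldoc (0.437), Shmt2 (71.2) and Ifi44 (2.73), in CPM. DN3 library RP1140B stood above the others for Tcf7 (1036) and Mcl1 (85.3), in CPM. DN3 library RP1140B stood below the others for Tcf4 (75.5) and Hmmr (88.2), in CPM. DN3 library RP1140A stood above the others for B2m (3699) and Oasl2 (55.4), in CPM. DP library RP1141A stood above the others for Tcf12 (551), in CPM. DN3 library RP1141A stood above the others for Hspe1 (434) and Epor (5.56), in CPM. 

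The stage difference itself differed between autonomy and turnover, by the interaction test over all 18 libraries, for 35 of the 163 genes. The test passed for 5.49% of all genes tested. Many of the 163 were named for their stage difference in turnover, which is part of the tested contrast. Their share is therefore not comparable with that of all genes. As a signed value, the log2 difference of DP over DN3 was higher in autonomy, by the amount in brackets, for Rgcc (0.95), Trbj1-7 (1.67), Cd3g (1.57), Patz1 (1.62), Il4ra (4.49), Ccr9 (4.74), Cd52 (3.64), Mxd4 (2.06), Trp53inp1 (1.503), Btg2 (1.44), Gimap6 (1.63) and Lsp1 (2.79). It was lower in autonomy for Ikzf3 (-1.83), Mki67 (-2.15), Cenpe (-1.84), Hmmr (-2.42), Cks1b (-1.21), Gins2 (-1.05), Ccnd3 (-1.20), Rps2 (-0.98), Tpi1 (-1.93), Rad21 (-1.20), Lmnb1 (-1.59), Ran (-0.75), Gzma (-1.48) and Clspn (-1.96). Of these, Cks1b, Gins2, Rps2, Tpi1, Ran and Gzma were lower in DP in both conditions, so for them the fall was larger in autonomy. For genes with no read in 1 of the 4 groups the adjusted p of edgeR's test is given in place of a fitted size, which is no bound there: Il7r (0.00293), Kit (0.0184), 5830411N06Rik (0.0143), Oasl2 (0.0381), Bst1 (0.0403), Clec12a (0.00564), Tifa (0.014), Mzb1 (0.0106) and Lrp1 (0.0238). Without RP1141B, Gins2, Trp53inp1, Oasl2 and Bst1 no longer passed this test.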

How the results depend on the processing

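Beside the 1720 higher and 1925 lower genes, edgeR with RLE factors gave 1755 and 1896, with upper-quartile factors 1701 and 1950, with total counts only 1985 and 1648, without the filter on low counts 1644 and 1851, and with all 18 libraries in 1 fit 1820 and 2201. DESeq2 gave 2146 and 2424, limma voom 1907 and 2460, and the A and B libraries of a number summed 1161 and 1399. With 1 library left out, the counts ran from 1269 to 1722 higher and 1359 to 1906 lower, and at 2-fold from 951 to 1276 and 1074 to 1484. The autonomy libraries gave 2718 higher, and 1889 at 2-fold. With 1 library left out, the difference in the share of the 50 highest genes ran from -2.25 to -1.57 percentage points (exact permutation p = 0.0571 where a DP library was left out, -1.94 to -1.77), that in genes detected from -802 to -599 (p = 0.0571 where a DN3 library was left out, -690.1 to -661), and that in the mitochondrial share from -1.87 to -1.31.

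The library numbers are shared between the stages, but their deviations from the group means did not go together (r of 0.0138, 0.015, -0.0258 and 0.0304), so they were not taken as pairs. With the replicate block the counts were 1450 and 1776 (1093 and 1366 at 2-fold), and with both RP1141B libraries left out of the replicate block 1165 and 1342 (972 and 1154). With the block, Clspn (adjusted p = 0.0719) and Epor (0.0681) lost their calls and Prf1 (0.0408) and Nkg7 (0.0162) passed; no other of the 163 genes changed its call.

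Of the 163 genes, 156 kept direction and side of the threshold without RP1141B, 160 with limma voom, 160 with DESeq2, 162 with total counts only and 148 with libraries summed. The log2 difference turned sign in autonomy for Rgcc (0.29), Dntt (0.53), Trav17 (1.11), Cd3g (0.17), Gata3 (0.19), Patz1 (0.56), Mki67 (-0.87), Cenpe (-0.43), Hmmr (-1.05), Lmnb1 (-0.89), Clspn (-1.24) and H2-Ab1 (1.68). Dntt turned sign with total counts only (0.0459) and ran from -0.0984 to 0.0158 with 1 library left out, and Lef1 turned sign with libraries summed (0.0212) and ran from -0.289 to 0.00851 with 1 left out; neither passed the test in those settings. Without RP1141B the autonomy minus turnover difference turned to -3.47 for Cd8a and -2.15 for Cd8b1, a setting chosen after seeing the data; the interaction then passed for 424 genes in place of 633. Ribosomal proteins lower in DP numbered 51 with total counts only, against 61. The cause of these changes was not tested. Libraries of 6329039 to 24191044 counts limit what is seen of genes near 1 CPM.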
